A study of Mus musculus with 10 samples.

Results

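Ephrins are membrane-bound guidance ligands, and the data below describe the transcripts of all 8 mouse ephrin genes in the cortical hem (CH), a signaling center at the dorsal midline of the embryonic telencephalon. The members, *Efna1*, *Efna2*, *Efna3*, *Efna4*, *Efna5*, *Efnb1*, *Efnb2* and *Efnb3*, were taken by gene symbol from a count table of 52227 genes. RNA was collected at embryonic day 13.5 by laser-capture microdissection from 5 wild-type and 5 *Lmx1a-/-* embryos, and 1 library was made per embryo. The mutants carried the drJ allele, a point mutation whose inactive protein is still made, so the *Lmx1a* transcript itself was present in them (45.6 to 90.8 CPM over the 5 wild-type embryos and 89.9 to 145 CPM over the 5 mutants). Both genotypes came from the same mixed background of C57Bl6, FVB and CD1, and the sections of an embryo were pooled. The study used males and females, but no label gives the sex of a library. Y-linked transcripts were found in all 5 mutants and, among the wild-type embryos, in embryo 1 only. Sex and genotype therefore largely cannot be told apart in these libraries. CPM are counts scaled to the library total and then between libraries (TMM).

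Ephrins fall into 2 classes. Ephrin-A ligands (*Efna* genes) are held in the outer membrane by a lipid anchor and bind mostly EphA receptors, whereas ephrin-B ligands (*Efnb* genes) span the membrane and bind mostly EphB receptors. *Epha4* is known for binding both classes. Binding sends a forward signal into the cell with the Eph receptor and can send a reverse signal into the cell with the ephrin. In the developing brain the system is known for axon guidance, for sorting cells at boundaries and for the movement of migrating neurons, including Cajal-Retzius (CR) cells, which are born in the CH.

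Library totals ranged from 19145952 to 36462780 counts, and the 8 ephrins together gave 4783 to 10258 counts per library. CH markers were present in every library, and *Wnt8b* averaged 851 ± 198 CPM over the wild-type embryos and 920 ± 71.4 CPM over the mutants. Of the 7 listed CH markers, 4 passed the threshold used below (an FDR under 0.1): *Wnt2b*, *Bmp7* and *Wnt5a* were lower in *Lmx1a-/-* (log2 fold changes -1.02, -0.91 and -0.41), and *Lmx1a* was higher (0.68). The libraries differed in ways other than genotype. *Xist*, which is transcribed from an inactive X chromosome, lay between 4399 and 5169 CPM in wild-type embryos 2 to 5 and at 1.01 CPM in wild-type embryo 1, while the 5 mutants lay between 0.163 and 1.15 CPM. The Y-linked transcripts *Ddx3y*, *Eif2s3y*, *Kdm5d* and *Uty* were found in wild-type embryo 1 and in all 5 mutants, where *Ddx3y* was 65.6 CPM and 72.5 to 84.3 CPM, respectively. Wild-type embryo 3 stood apart in the marker lists: among wild-type libraries it had the lowest sum of CH markers (1428 CPM, against 1964 to 2730 CPM), of CR cell markers (205 CPM) and of choroid plexus epithelium markers (116 CPM), and the highest sum of meningeal and mesenchymal markers (909 CPM). In tissue pieces of this kind, fewer cells of a type and less RNA per cell cannot be told apart.

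The members lie on 6 chromosomes (GRCm38, GENCODE M21). *Efna1* (chr3:89271733-89281142), *Efna3* (chr3:89313899-89322965) and *Efna4* (chr3:89333390-89338028) share the minus strand of a stretch of 66296 bp, with gaps of 32756 bp and 10424 bp between them. *Efna5* (chr17:62604184-62881317, minus strand) is the longest gene, with 277134 bp, and *Efnb1* (chrX:99136130-99148991, plus strand) is X-linked. *Efna2* lies at chr10:80179482-80190010 (plus strand), *Efnb2* at chr8:8617434-8661242 (minus strand) and *Efnb3* at chr11:69554092-69560205 (minus strand). Exons of *Efna3* share 344 bp with *Gm15998* and those of *Efna4* share 168 bp with *4731419I09Rik*, both on the opposite strand. Whether reads were counted by strand is not given in the sources used here, so the counts of these 2 members are uncertain to that extent.

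The promoters of *Efnb1* and *Efna5* are shown because these members gave the smallest p values between genotypes. Each run covers 250 bases before and 50 bases after the transcript start in RefSeq (GRCm38.p6), read 5′ to 3′ on the gene's own strand, with every CG dinucleotide in capitals. The windows are chrX:99135811-99136110 (plus strand) and chr17:62881268-62881567 (minus strand).
*Efnb1* promoter: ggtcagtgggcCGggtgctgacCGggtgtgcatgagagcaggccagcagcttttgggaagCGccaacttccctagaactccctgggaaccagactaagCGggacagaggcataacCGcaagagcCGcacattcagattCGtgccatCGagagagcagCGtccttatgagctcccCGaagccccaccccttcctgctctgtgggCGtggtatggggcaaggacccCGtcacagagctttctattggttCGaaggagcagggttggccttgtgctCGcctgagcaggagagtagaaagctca
*Efna5* promoter: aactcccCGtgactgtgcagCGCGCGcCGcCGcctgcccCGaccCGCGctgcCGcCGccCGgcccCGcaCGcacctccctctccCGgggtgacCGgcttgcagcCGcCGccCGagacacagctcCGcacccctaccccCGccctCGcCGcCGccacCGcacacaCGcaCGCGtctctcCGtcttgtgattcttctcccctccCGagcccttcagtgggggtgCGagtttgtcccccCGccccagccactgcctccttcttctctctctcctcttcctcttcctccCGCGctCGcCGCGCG

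The *Efnb1* window held 14 CG dinucleotides and was 59.7% G or C, while the *Efna5* window held 38 and was 73.3% G or C. The median over 32851 promoters of the same length was 7 CG dinucleotides and 52.7%. RefSeq promoters matched 7 of the 8 members, all but *Efnb3*, with 9 windows. *Efnb2* had 35 CG dinucleotides, *Efna2* had 31, the 2 windows of *Efna3* had 34 and 22, both windows of *Efna1* had 20, and *Efna4* had the fewest (11). All 9 windows thus lay above the median. The letters TAATTA, a core that many homeodomain proteins can bind and that reads the same on both strands, occurred in 5.29% of all promoters and in 1 of the 9 ephrin windows, the one of *Efna1* at chr3:89280902-89281201. A match of letters is a description and does not show that a factor binds.

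In the wild-type CH, *Efnb2* was the most abundant ephrin per length. Per kilobase (kb) of merged exons it averaged 20.9 ± 3.09 CPM (SD, n = 5), higher than 90.3% of 14683 tested protein-coding genes. *Efnb3* followed at 9.68 ± 2.34 CPM per kb, *Efna5* at 9.37 ± 1.35 and *Efnb1* at 7.15 ± 2.64. *Efna4* (5.97 ± 1.19) and *Efna2* (4.54 ± 0.449) were intermediate, and *Efna1* (1.48 ± 0.600) and *Efna3* (1.28 ± 0.201) were lowest. These last 2 were below the median tested protein-coding gene, which had 3.72 CPM per kb.

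Not every step in this order was clear of the spread between embryos. *Efnb2* was above *Efnb3* in all 10 libraries, and *Efna2* was above *Efna1* in all 10. *Efnb3* and *Efna5* could not be ordered in wild type, where *Efnb3* was higher in 3 of 5 libraries, and neither could *Efna1* and *Efna3* (3 of 5). *Efna5* was above *Efnb1* in 4 of 5 wild-type libraries but in 1 of 5 *Lmx1a-/-* libraries. These comparisons of levels between genes are descriptions without a test.

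**Figure D1:**
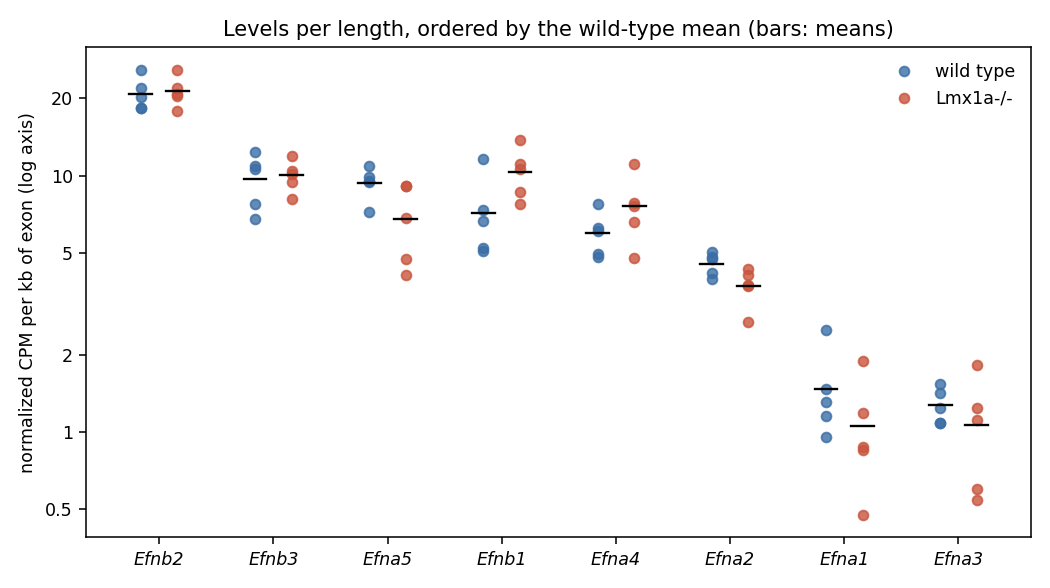
Normalized CPM per kb of merged exons (log axis) for the 8 ephrins, ordered by the wild-type mean, in 5 wild-type and 5 *Lmx1a-/-* libraries (points) with group means (bars). *Efnb2* lies above every other ephrin in all libraries, and *Efna1* and *Efna3* lie lowest.

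The 3 ephrin-B genes made up most of the summed ephrin level per kb. Their share was 62.4 ± 3.86% in wild type (56.5 to 65.6%) and 67.4 ± 4.90% in *Lmx1a-/-* (62.8 to 73.3%), so the ranges overlapped. *Efnb2* alone contributed 34.5 ± 2.28% and 34.5 ± 3.80%, respectively. The sum over all 8 genes was 60.4 ± 5.34 CPM per kb in wild type and 61.9 ± 4.08 CPM per kb in *Lmx1a-/-*. *Efnb1* contributed 11.7 ± 3.38% in wild type and 16.7 ± 2.99% in the mutants, and *Efna5* contributed 15.5 ± 1.84% and 10.9 ± 3.51%. For both, the ranges of the genotypes overlapped. For *Efna2*, the shares did not overlap, with 7.01 to 8.63% in wild type and 4.65 to 6.38% in *Lmx1a-/-*, although its CPM did. The *Efna2* share was singled out after its values were seen, and shares of 1 sum depend on each other, so no test is given.

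**Figure D2:**
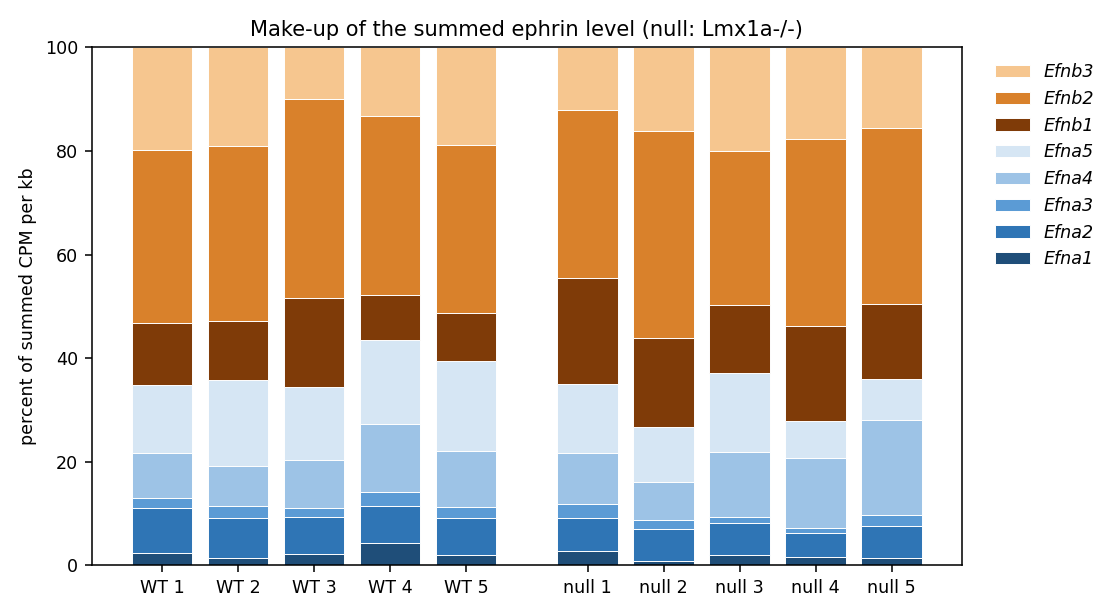
Percent of the summed ephrin CPM per kb contributed by each of the 8 members in each library, with ephrin-A genes in blue and ephrin-B genes in brown and orange. The ephrin-B genes take 56.5 to 65.6% in the wild-type libraries (WT) and 62.8 to 73.3% in the *Lmx1a-/-* libraries (null).

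The comparison between genotypes asks whether the loss of *Lmx1a*, a LIM-homeodomain transcription factor of the CH, changed ephrin transcripts. All 8 members passed the filter on low counts, and 0 of 8 passed the threshold of a false discovery rate (FDR) under 0.1 in edgeR's quasi-likelihood test with Benjamini-Hochberg adjustment over 21664 genes. Of all genes tested, 4.02% passed (497 lower and 373 higher in *Lmx1a-/-*). The study itself reported more genes in each direction at the same FDR threshold, and the reason was not tested. At an unadjusted p under 0.05 the count was 2 of 8, *Efnb1* higher and *Efna5* lower, against 16.4% of all genes. The likelihood ratio test of edgeR and the Wald test of DESeq2 also passed 0 of 8, against 6.28% and 8.15% of all genes, respectively. The libraries of the 2 genotypes overlapped for every ephrin, while 4.44% of all genes had libraries that did not overlap. Of the log2 fold changes, 4 were below 0 and 4 above, with a median of -0.11, beside a median of -0.00 and 50.6% below 0 over all genes tested. A missed threshold does not show that a level was equal, and the 95% interval of each fold change is therefore given with it.

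**Figure D3:**
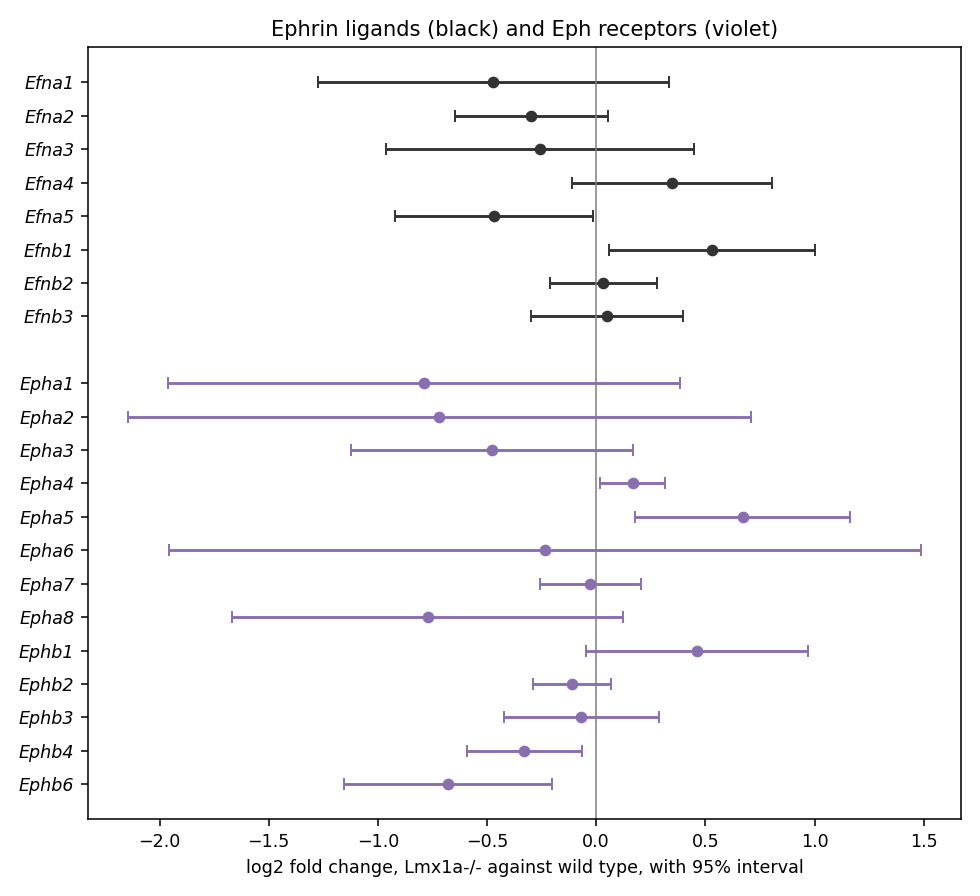
Log2 fold change (*Lmx1a-/-* against wild type) with its 95% interval for the 8 ephrins (black) and the 13 tested Eph receptors (violet). The intervals of *Efnb1* and *Efna5* exclude 0 before adjustment, and those of *Efnb2* and *Efnb3* lie around 0.

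*Efnb1*, an ephrin-B ligand known for sorting cells at boundaries, had the smallest p of the family. Its levels in wild-type embryos 1 to 5 were 22.9, 25.3, 39.9, 17.5 and 18.0 CPM, and in *Lmx1a-/-* embryos 1 to 5 they were 47.4, 38.4, 26.8, 36.5 and 29.7 CPM. All 5 mutants lay above 4 of the wild-type libraries, and wild-type embryo 3 lay among the mutants. The means were 24.7 ± 9.10 CPM and 35.8 ± 8.07 CPM (SD, n = 5 each). The log2 fold change was 0.53 (SE 0.22, 95% interval 0.06 to 1.00, FDR = 0.243), that is 1.45-fold with an interval of 1.04 to 2.01. Without wild-type embryo 3, the library that overlaps the mutants, the log2 fold change was 0.77 and the FDR 0.037, which passes the threshold. The embryo is singled out because its *Efnb1* value lay among the mutants, so this FDR is not separate evidence. In the other 9 fits that left out 1 embryo the log2 fold change was 0.41 to 0.61, with an FDR of 0.186 to 0.410, and none passed.

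Several marker lists differed between the same libraries. The 5 cortical neuroepithelium markers were *Lhx2*, *Emx1*, *Pax6*, *Emx2* and *Sox2*. Their log2 fold changes were 0.43, 0.10, 0.37, 0.65 and 0.0027, respectively, with 1 past the threshold (*Emx2*) and *Sox2* nearly unchanged. Their sum was 388 to 673 CPM in the wild-type CH and 599 to 872 CPM in the *Lmx1a-/-* CH. The highest wild-type sum was that of embryo 3, and none of the 5 was at 0 in any library. With the mean log2 level of this list as a covariate, a fit chosen after seeing the data, the *Efnb1* log2 fold change was 0.14 (FDR = 0.815). The choroid plexus epithelium list, headed by *Ttr*, summed to 116 to 455 CPM in wild type and 143 to 215 CPM in the mutants. *Kcne2* and *Kl* were at 0 in at least 1 library. Of this list, 6 of 7 tested genes had a fold change below 0, with 1 past the threshold (*Ttr*). With this list as a covariate the value for *Efnb1* was 0.12 (FDR = 0.934). In that fit few of all genes passed (23 lower and 27 higher, in place of 497 and 373), so the change is not particular to *Efnb1*. CR cell markers, headed by *Reln*, summed to 205 to 396 CPM in wild type and 132 to 187 CPM in *Lmx1a-/-*, with 3 of 5 tested genes past the threshold as lower and 1 as higher, and *Calb2* at 0 in at least 1 library. Red blood cell markers, headed by *Hbb-y*, summed to 549.97 to 1196 CPM and 233 to 517 CPM, with 0 of 5 past the threshold in edgeR's quasi-likelihood test (4 at an unadjusted p under 0.05, all lower) and 3 lower in both the likelihood ratio test and DESeq2. Of all genes, 4.02%, 6.28% and 8.15% passed in these tests, respectively. Meningeal and mesenchymal markers, headed by *Col1a1*, summed to 313 to 909 CPM and 238 to 504 CPM, with 3 of 8 past the threshold, all lower. With this list as a covariate, also chosen after seeing the data, the *Efnb1* log2 fold change was 0.53 (FDR = 0.463). With the endothelium list, headed by *Pecam1*, as a covariate it was 0.62 (FDR = 0.217). The part of any of these cells in the *Efnb1* values was not tested. *Efnb1* is X-linked, and the sex transcripts above were split unevenly between genotypes. All 5 mutants were above wild-type embryo 1. The *Efnb1* log2 fold change was 0.64 over the 6 libraries with Y-linked transcripts, where that embryo is the only wild-type library. With *Xist* as a covariate it was 0.59 (FDR = 0.710), in a fit where few of all genes passed (24 lower and 1 higher).

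**Figure D4:**
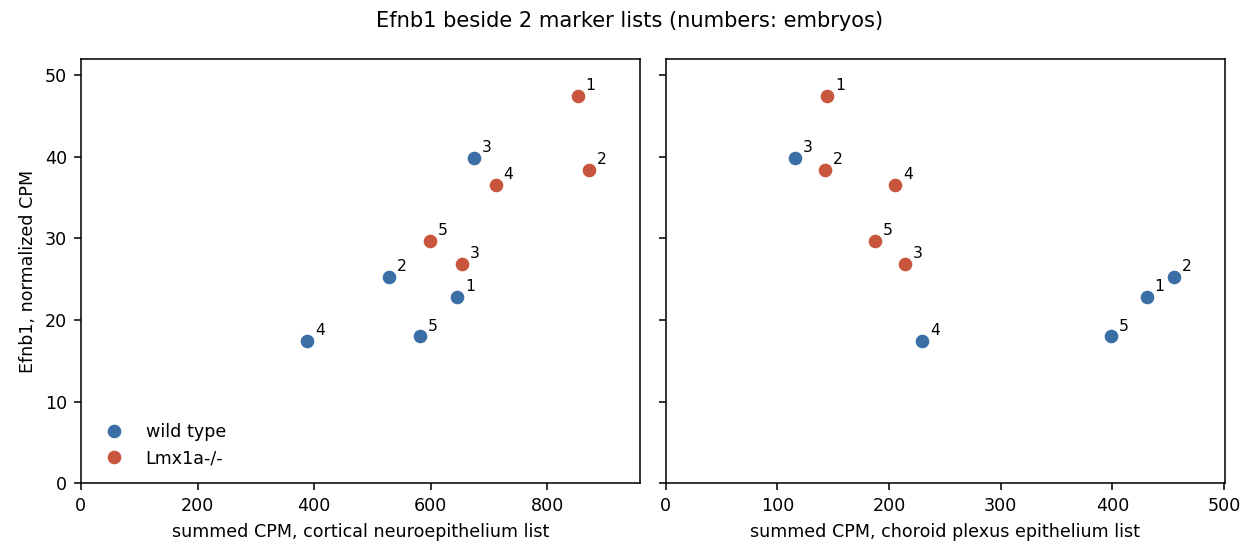
*Efnb1* CPM (vertical axis) against the summed CPM of 5 cortical neuroepithelium markers (left) and of 8 choroid plexus epithelium markers (right) in each library, with embryo numbers beside the points. Wild-type embryo 3 has the highest *Efnb1* level of its genotype (39.9 CPM), the highest neuroepithelium sum (673 CPM) and the lowest choroid plexus sum (116 CPM).

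The genes whose pattern over the 10 libraries was most like that of *Efnb1* were *Creb5*, *Spire1* and *Trib2*. Likeness was the root-mean-square difference of log2 CPM after centring each gene on its own mean, which was 0.196, 0.197 and 0.213 for the 3 genes and had a median of 0.549 over all tested protein-coding genes. *Creb5*, a transcription factor gene, averaged 54.8 ± 28.0 CPM in the wild-type CH and 82.0 ± 11.4 CPM in the *Lmx1a-/-* CH (log2 fold change 0.58, SE 0.24, FDR = 0.249). The FDR was 0.180 for *Spire1*, which encodes an actin nucleator, and 0.228 for *Trib2*, a pseudokinase gene. Because these genes were picked for their likeness over the same libraries, a genotype difference like that of *Efnb1* follows from the choice.

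*Efna5*, an ephrin-A ligand known for repelling axons and for setting up topographic maps, was the second member with an unadjusted p under 0.05. The wild-type levels were 29.0, 43.8, 38.3, 38.1 and 39.7 CPM, and the mutant levels were 36.7, 27.5, 36.8, 16.5 and 19.1 CPM. Of the mutants, 3 (embryos 2, 4 and 5) lay below every wild-type library and the other 2 lay inside the wild-type range, so the mutants were spread more widely (37.8 ± 5.43 CPM in wild type, 27.3 ± 9.53 CPM in *Lmx1a-/-*). The log2 fold change was -0.47 (SE 0.21, 95% interval -0.92 to -0.02, FDR = 0.287). The lowest wild-type value was that of embryo 1, the wild-type library with Y-linked transcripts. Over the 6 libraries with these transcripts, where embryo 1 is the only wild-type library, the log2 fold change was -0.09. With *Xist* as a covariate it was -0.07 (FDR = 0.975), in a fit where few of all genes passed (24 lower and 1 higher). A role of sex in the *Efna5* values was not tested. Genotype and sex transcripts cannot be told apart for the other 4 wild-type libraries.

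*Efnb2*, which is known for its role in blood vessels as well as in neural progenitors, had the most counts (2665 to 6000 per library) and the narrowest interval. Wild-type levels were 126, 149.9, 176, 138 and 126 CPM, and mutant levels were 151, 177, 123, 142 and 139.9 CPM. The ranges of the genotypes were nearly the same, with a log2 fold change of 0.03 (SE 0.11, FDR = 0.921) and a 95% interval of -0.21 to 0.28, or 0.864-fold to 1.21-fold. The direction turned with the choroid plexus list as a covariate (-0.25, FDR = 0.610). Endothelial markers, headed by *Pecam1*, summed to 23.5 to 83.1 CPM in the wild-type CH and 20.4 to 58.5 CPM in the *Lmx1a-/-* CH, and none of the 8 passed the threshold in edgeR's quasi-likelihood test (1 at an unadjusted p under 0.05), in the likelihood ratio test or in DESeq2. Of all genes, 4.02%, 6.28% and 8.15% passed in these tests, respectively.

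*Efnb3*, an ephrin-B ligand known for keeping axons of the corticospinal tract from crossing the midline, ranged from 21.5 to 39.4 CPM in wild type (median 33.8 CPM) and from 25.9 to 38.0 CPM in the mutants (median 32.3 CPM). All mutant values fell inside the wild-type range. The log2 fold change was 0.05 (SE 0.16, 95% interval -0.30 to 0.40, FDR = 0.919).

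*Efna2*, an ephrin-A ligand that acts with *Efna5* in the visual map, had wild-type levels of 10.1, 10.7, 10.2, 8.93 and 8.42 CPM and mutant levels of 9.18, 8.70, 7.97, 5.70 and 7.90 CPM. Of the mutants, 3 were below every wild-type library, and none was above wild-type embryo 1. The log2 fold change was -0.30 (SE 0.16, 95% interval -0.65 to 0.05, FDR = 0.391). An exact two-sided permutation test of the mean log2 CPM gave p = 0.0397 for *Efna2*, unadjusted for the 8 members tested, where the smallest p that 5 against 5 libraries allow is 0.00794. The same exact test gave p = 0.0556 for *Efna5* and p = 0.0635 for *Efnb1*, and between 0.206 and 0.794 for the other 5 members.

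None of the 3 members that lie side by side on chromosome 3 passed the threshold, and each interval included 0. *Efna4* was 7.69, 7.94, 9.97, 12.4 and 9.71 CPM in wild type and 10.5, 7.66, 12.1, 12.5 and 17.7 CPM in *Lmx1a-/-*, with 2 mutants above every wild-type library and 1 below. Its log2 fold change was 0.35 (SE 0.21, 95% interval -0.11 to 0.81, FDR = 0.456). *Efna1* ranged from 1.76 to 4.57 CPM in wild type (median 2.39 CPM) and from 0.870 to 3.46 CPM in the mutants (median 1.61 CPM), with a log2 fold change of -0.47 (SE 0.37, 95% interval -1.28 to 0.33, FDR = 0.579). *Efna3* ranged from 2.65 to 3.74 CPM and from 1.33 to 4.46 CPM, with a log2 fold change of -0.26 (SE 0.33, 95% interval -0.96 to 0.45, FDR = 0.754). *Efna1* and *Efna3* rested on 16 to 104 and 43 to 134 counts per library, and their intervals were the widest of the family. The 95% interval of *Efna1* ran from 0.413-fold to 1.26-fold.

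**Figure D5:**
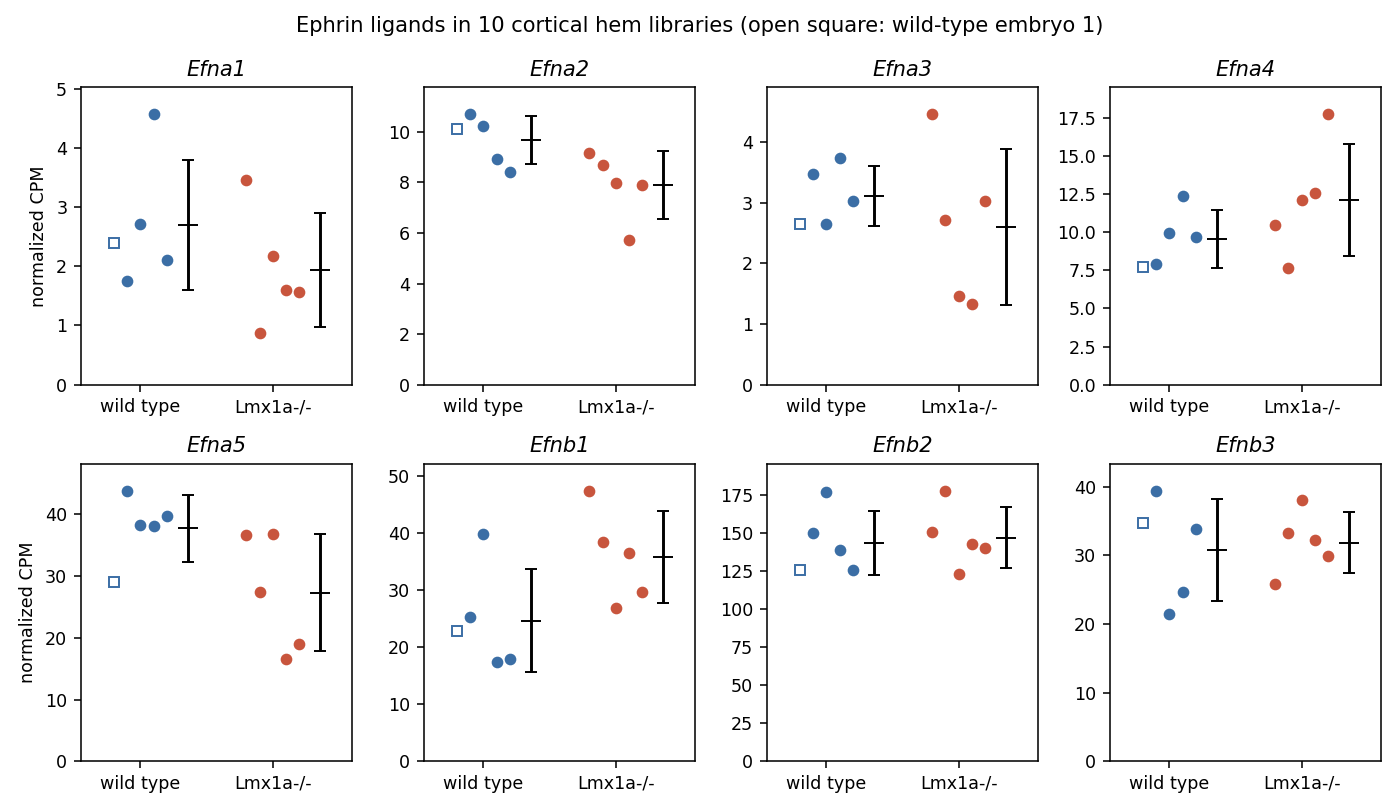
Normalized CPM of each ephrin in the 5 wild-type (blue) and 5 *Lmx1a-/-* (red) libraries, left to right from embryo 1 to embryo 5, with the mean and SD in black. The open square is wild-type embryo 1, the wild-type library with Y-linked transcripts; the genotypes overlap in all 8 panels.

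Eph receptors, through which these ligands signal, varied widely in level in the same libraries: per kb, 8 of the 14 receptor genes lay above the median tested protein-coding gene in wild type and 6 below it. Of the 14, 13 passed the filter (*Epha10* did not), and 0 of 13 passed the threshold in edgeR's quasi-likelihood test, where 4.02% of all genes passed. At an unadjusted p under 0.05 there were 4 of 13 (2 higher and 2 lower), against 16.4% of all genes. The likelihood ratio test passed 1, *Epha5*, against 6.28% of all genes, and DESeq2 passed 1, *Ephb6*, against 8.15%. The median log2 fold change was -0.23, with 10 below 0 and 3 above. *Epha4* had the highest level per kb of any receptor, 62.1 CPM in the wild-type CH and 69.7 CPM in the *Lmx1a-/-* CH, or 500.0 ± 20.9 and 561 ± 46.5 CPM (log2 fold change 0.17, SE 0.07, FDR = 0.246). *Epha7* (22.3 CPM per kb in wild type) and *Ephb2* (11.6 CPM per kb) followed, with log2 fold changes of -0.03 (FDR = 0.932) and -0.11 (FDR = 0.546).

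The receptors with the smallest p values are named here after their values were seen. *Ephb6*, a receptor without kinase activity, was 5.91 to 9.81 CPM in wild type and 2.66 to 5.08 CPM in the mutants, and was the only one of the 13 tested receptors whose libraries did not overlap, as was the case for 4.44% of all genes (log2 fold change -0.68, SE 0.22, FDR = 0.139). *Epha5*, a known receptor of *Efna5*, was 92.8, 73.8, 186, 67.5 and 109 CPM in wild type and 182, 199.7, 138, 154 and 169.5 CPM in *Lmx1a-/-* (log2 fold change 0.67, SE 0.23, FDR = 0.158). As for *Efnb1*, the 4 other wild-type libraries lay below every mutant and wild-type embryo 3 lay among them. Without that embryo the FDR of *Epha5* was 0.00295. The embryo is singled out because its value lay among the mutants, so this FDR is not separate evidence. In the fits that left out any other embryo, the lowest FDR of any receptor was 0.116 to 0.274.

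Genes that carry the signal further were counted in lists of forward signaling, reverse signaling, and cleavage and dephosphorylation. Of 17 forward signaling genes, 1 passed the threshold, *Kalrn*, which encodes a guanine nucleotide exchange factor that acts below EphB receptors. It was higher in all 5 mutants than in any wild-type library (191 ± 22.2 and 255 ± 4.85 CPM, log2 fold change 0.42, SE 0.08, FDR = 0.015). Of 11 reverse signaling genes, 1 passed, the kinase gene *Src*, which was lower in all 5 mutants than in any wild-type library (25.5 ± 3.06 and 18.3 ± 1.79 CPM, log2 fold change -0.48, SE 0.12, FDR = 0.053). Of 9 cleavage and dephosphorylation genes, 1 passed, *Ptpro*, a receptor phosphatase known to act on Eph receptors, with 8.95 ± 2.32 CPM in the wild-type CH and 15.3 ± 2.35 CPM in the *Lmx1a-/-* CH (log2 fold change 0.77, SE 0.19, FDR = 0.057). The median log2 fold changes of the 3 lists were -0.02, -0.04 and -0.05. The single gene that passed in each list stands beside the 4.02% of all genes tested that did.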

How the data were processed

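The authors deposited raw read counts per gene, without normalization. According to the study's methods, paired-end reads were trimmed with Trimmomatic, aligned to GRCm38 with STAR 2.7.1a and counted with HTSeq 0.11.2 against the Ensembl annotation. Of 52508 rows, 281 exact repeats were dropped. The filter kept genes that reached 10 counts in 3 or more libraries, and genotypes were compared with edgeR 4.0.16 (R 4.3.3, limma 3.58.1): TMM scaling, the quasi-likelihood test with legacy dispersions, no covariate, and an FDR under 0.1 as the threshold. The SE is the log2 fold change divided by the square root of F. No label states that embryos of the same number are related. Alternatives were DESeq2 1.42.0, other tests, scalings, filters and covariates, a replicate block, an FDR of 0.05 and each embryo left out in turn. Scripts were tested on simulated data. Levels per kb used merged exons of GENCODE M21. Each 95% interval is that of the log2 fold change, from its SE and the test's degrees of freedom. It does not give the spread of single embryos, which the SD describes.

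The genes named are the 8 ephrins, the Eph receptors past the threshold and the 3 with the highest level per kb, pathway genes past the threshold (at most 5 a list), the 3 genes most like the ephrin with the smallest p, markers, and genes that check the labels. *Ephb6*, *Epha5* and *Epha1* fall outside this rule and were named after their values were seen, as were the other CH markers with values. Markers that this rule includes but that are not reported here were left out of their lists. The members and all lists were chosen with earlier results of these data known.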

Additional observations from a re-analysis of the deposited data

Results flagged for a closer look

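Within each genotype, the 8 ephrins and 13 tested Eph receptors were searched for a library whose gap to its nearest neighbour took up more than the 95% critical share of the group's range (Dixon's test for 5 samples). Chance alone marks about 1 in 20 groups; 3 of 42 were marked, and none was an ephrin. For *Ephb6*, wild-type embryo 4 had 9.81 CPM, while the other 4 had 5.91 to 6.85 CPM, and *Lmx1a-/-* embryo 2 had 2.66 CPM, while the others had 4.43 to 5.08 CPM. For *Epha1*, *Lmx1a-/-* embryo 4 had 0.305 CPM, while the others had 1.79 to 2.37 CPM.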

How the results depend on the processing

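The count of ephrins past the threshold stayed at 0 of 8 in all alternatives that kept the 10 libraries, the replicate block and an FDR of 0.05 included. In several of these, fewer of the 21664 genes passed than in the main fit (497 lower and 373 higher). With the cortical neuroepithelium list as a covariate 201 were lower and 164 higher, and with the meninges and mesenchyme list 219 and 141. Few passed with *Xist* or the choroid plexus list (counts below), so 0 of 8 says little there. With 1 embryo left out the count of ephrins ranged from 0 to 1, where the 1 was *Efnb1* without wild-type embryo 3. The count of Eph receptors was 1 with the likelihood ratio test and with the endothelium list as a covariate (*Epha5* in both), 1 with DESeq2 (*Ephb6*), and 0 to 1 with 1 embryo left out. *Efna1*, *Efna2*, *Efna3*, *Efna4*, *Efna5* and *Efnb1* kept their direction in all 27 alternatives, but not their size. With 1 embryo left out, *Efna1* ranged from -0.78 to -0.21, *Efna3* from -0.55 to -0.09, *Efna4* from 0.18 to 0.47, *Efna5* from -0.60 to -0.33 and *Efna2* from -0.36 to -0.20. With *Xist* as a covariate, *Efna3* was -0.0155, *Efna1* -0.17 and *Efna4* 0.78, and over the libraries with Y-linked transcripts they were -0.04, -0.30 and 0.65. The fold change of *Efnb2* turned to -0.25 with the choroid plexus list as a covariate, to -0.0974 with the cortical neuroepithelium list and to -0.00296 with the meninges and mesenchyme list, and ranged from -0.0487 to 0.117 with 1 embryo left out. That of *Efnb3* turned to -0.13 with *Xist* as a covariate, to -0.0451 with the meninges and mesenchyme list and to -0.13 over the libraries with Y-linked transcripts, and ranged from -0.0606 to 0.148 with 1 embryo left out. The causes were not tested. The cortical neuroepithelium and the meninges and mesenchyme covariates were chosen after seeing the data. Per kb of the longest transcript in place of merged exons, the *Efnb2* share in wild type was 42.5% in place of 34.5%, since its longest transcript (4793 bp) is shorter than its merged exons (6855 bp). Only 1 wild-type library has Y-linked transcripts, so its spread was taken from the mutants in that fit.

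Deviations of same-numbered embryos from their group means correlated between -0.0844 and 0.00696, and 0 of 10 libraries correlated best with its own number, so the numbers are not read as pairs. With a replicate block for the number, 353 genes were lower and 248 higher in place of 497 and 373. Counts over all genes also moved with covariates: 24 lower and 1 higher with *Xist*, and 23 lower and 27 higher with the choroid plexus list.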
